A study of Mus musculus with 29 samples.

Results

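The 9 genes described here are the bone morphogenetic protein (BMP) ligands Bmp2, Bmp3, Bmp4, Bmp5, Bmp6 and Bmp7 and the secreted BMP antagonists Grem1, Nog and Chrdl1, taken by name from a table of 51912 mouse gene identifiers. Bmp7 was chosen also because it was lower in null ovaries at postnatal day 8 (PND8), so values that rest on the PND8 genotype contrast are given for all 9 genes as a description, with no test. RNA was sequenced in bulk from mouse ovaries that carried either both copies of Cdkn1b (Cdkn1b +/+, wild type) or none (Cdkn1b -/-, null), collected at embryonic days 13.5 and 18.5 (E13.5, E18.5), at PND8 and at 12 weeks. Each age had 4 wild-type samples and 3 null samples, except E18.5, which had 4 of each, 29 in all. Every ovary, of both genotypes, was dissociated with papain before RNA was purified on micro-scale columns, and no sample received another treatment by its labels. The labels do not give the strain, the litters or which animals the replicates came from, so p-values measure only the spread between these samples, which may be partly technical.

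BMPs are secreted dimers of the transforming growth factor beta superfamily that bring together type I and type II receptors, whose kinase activity passes to SMAD1, SMAD5 and SMAD9, which join SMAD4 and switch on genes such as the Id family. Gremlin, noggin and the chordin-like proteins bind the ligands outside the cell and keep them from the receptors. In the ovary BMPs from oocytes, granulosa cells, theca and stroma are known for roles in germ cell specification, primordial follicle formation and survival, and granulosa cell steroid synthesis. Cdkn1b encodes p27Kip1, an inhibitor of cyclin-dependent kinases, and ovaries that lack it are known to activate their primordial follicles early.

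Levels are given as CPM, counts scaled to a common library total, on one scale over all 29 libraries. Total counts per library ran from 14.1 to 48.2 M, so that 3 counts, the floor used here, equal 0.07 to 0.227 CPM. Wild-type totals were 17.3 to 20.9 M at E18.5 and 32.3 to 41.9 M at PND8. Null totals were 17.6 to 22.8 M and 34.5 to 48.2 M at these ages. Cdkn1b (ENSMUSG00000003031, chr6:134920401-134925513, plus strand of GRCm38) was lower in every null than in every wild-type library at each age. Its group means were 4.49 against 22.8 CPM at E13.5, 12.7 against 103 CPM at E18.5 and 71.7 against 149 CPM at PND8, and at 12 weeks 51.2 against 183 CPM, which is 27.7% of wild type. The log2 fold change passed the test at E13.5, E18.5 and PND8 (adjusted p = 0.0114, 1.12e-05 and 0.0216, edgeR) and not at 12 weeks (-1.85, adjusted p = 0.211), where DESeq2 (7.23e-07) and a fit of all groups together (0.000105) called it. With the replicate block it was not called at E13.5 (0.0763) or PND8 (0.085), nor at PND8 in the fit of all groups (0.106). Leaving out 1 library ended the call in 5 of 7 fits at E13.5, without wild-type replicates 1 or 4 or any one null replicate (up to 0.207), and in 2 of 7 at PND8, without null replicates 3 or 4 (up to 0.117). Reads remained in every null library, and which bases the null allele lacks was not analysed here. The granulosa lineage gene Foxl2, used to check the tissue label, had group means from 9.21 CPM in wild type at E13.5 to 489 CPM in wild type at PND8. Wild-type replicate 3 at E13.5 stood apart through its red blood cell markers, whose summed level was 16.6 times the highest of its 3 fellow wild-type replicates (4440 to 8120 CPM). In such bulk samples fewer cells of a type and less RNA per cell cannot be told apart.

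Promoter sequence is shown for the member with a genotype call, Bmp4, and for the member with the largest step in level between ages, Grem1. Each run is the 250 bases upstream of the RefSeq start in GRCm38.p6, read 5′ to 3′ on the gene's own strand, which is the minus strand for both. Bmp4 covers chr14:46390670-46390919 and Grem1 covers chr2:113758649-113758898. Capitals mark GGCGCC, a GC-rich element bound by SMAD1 and SMAD5, which reads the same on both strands.
Bmp4 promoter: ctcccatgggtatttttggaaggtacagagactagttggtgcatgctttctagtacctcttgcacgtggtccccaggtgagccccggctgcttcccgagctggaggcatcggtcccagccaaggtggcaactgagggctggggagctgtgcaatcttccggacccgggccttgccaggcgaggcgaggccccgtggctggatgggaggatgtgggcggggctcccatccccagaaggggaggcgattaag
Grem1 promoter: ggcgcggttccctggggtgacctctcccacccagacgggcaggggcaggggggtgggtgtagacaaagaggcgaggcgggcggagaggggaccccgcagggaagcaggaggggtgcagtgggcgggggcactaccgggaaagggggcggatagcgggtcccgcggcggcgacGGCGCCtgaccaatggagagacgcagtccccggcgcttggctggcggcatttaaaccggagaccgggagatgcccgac
The Grem1 window held 1 such element and the Bmp4 window held 0. Of 32851 RefSeq promoters of the same length, 9.59% held at least 1. Only 4 of the 9 members had an entry in the promoter table, and the windows of Bmp5 and Bmp6 held 0 as well. GC content was 72% for Grem1 and 63.2% for Bmp4. A match is a description of these letters and was not tested as a binding site.

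The mix of ligands and antagonists changed with age. Compared per length, as CPM per kilobase of exon, the highest level of the 9 in wild-type ovaries was that of Bmp2 at E13.5 (7.4 ± 2.24 CPM per kilobase, SD, n = 4), of Bmp2 at E18.5 (6.86 ± 0.592), of Bmp7 at PND8 (9.84 ± 1.14) and of Bmp2 again at 12 weeks (8.83 ± 1.93). Bmp4 was next to Bmp2 at E13.5 with 6.5 ± 2.67 CPM per kilobase, within their spread. At E18.5 Bmp2 stood clear of Bmp7 (3.7 ± 1.3), and Bmp7 stood clear of Bmp4 (1.51 ± 0.101). The order at PND8 ran Bmp7, Bmp3, Bmp4, Bmp2, Bmp6, Chrdl1, Nog, Bmp5 and Grem1. Each of the first 7 lay within 1 SD ranges of its neighbour, while Bmp5 (0.185 ± 0.0646) and Grem1 (0.0339 ± 0.0185) lay clear below. The 12-week order ran Bmp2, Bmp3, Bmp6, Grem1, Bmp7, Bmp4, Chrdl1, Nog and Bmp5. There only Chrdl1 (1.39 ± 0.892) was clear of the gene above it, Bmp4 (3.55 ± 0.966), and Bmp5 (0.0684 ± 0.0253) of Nog (0.623 ± 0.116). Among antagonists Nog was the highest per length at E13.5 (1.35 ± 0.609), Chrdl1 at PND8 (2.29 ± 0.631) and Grem1 at 12 weeks (4.21 ± 5.94). The place of Grem1 rests on wild-type replicate 1, at 12.9 CPM per kilobase against 3.13, 0.302 and 0.503 in replicates 2 to 4, and in replicates 3 and 4 Chrdl1 was higher (1.11 and 0.718).

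**Figure D1:**
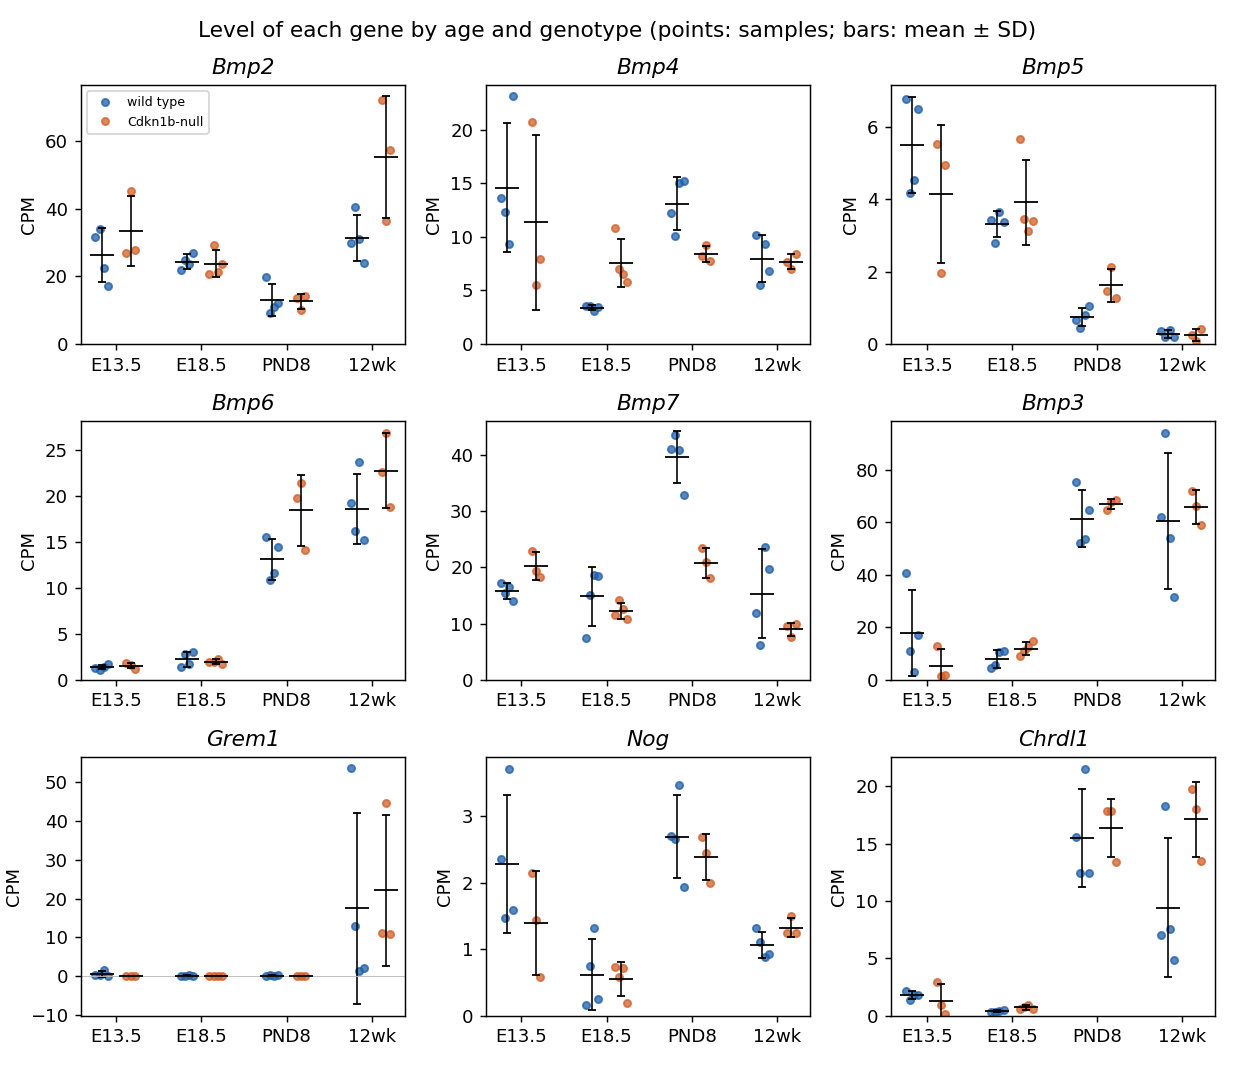
Level of each of the 9 genes in CPM (y axis) by age (x axis), with wild-type samples in blue and Cdkn1b-null samples in orange; points are samples and bars the mean ± SD of 3 or 4 samples. Bmp6, Bmp3 and Chrdl1 are high from PND8 on, Bmp5 is high before birth, Grem1 is near 0 until 12 weeks, and Bmp7 has its highest samples in wild type at PND8 (32.9 to 43.5 CPM).

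In wild-type ovaries Chrdl1, Bmp3, Bmp6, Nog and Bmp4 rose and Bmp2 and Bmp5 fell between E18.5 and PND8, the interval in which follicles form and the first of them grow, so that all 7 members tested passed an adjusted p of 0.05 in edgeR's quasi-likelihood test, where 74.6% of all genes tested did (37.6% higher and 36.9% lower), so that a call there sets few genes apart. Earlier, from E13.5 to E18.5, Bmp4, Chrdl1, Nog and Bmp5 fell and no member rose, 4 of the 8 tested, against 34% of all genes tested (17.5% lower). Later, from PND8 to 12 weeks, Grem1, Bmp2 and Bmp6 rose and Bmp5 and Nog fell, 5 of 8 against 30.5% of all genes (16.1% higher and 14.3% lower). Bmp7 is left out of the counts that touch PND8. Cell markers moved over the same interval: summed wild-type granulosa markers went from 1690 to 1930 CPM at E18.5 to 3650 to 4630 CPM at PND8, stromal markers from 2350 to 4120 CPM to 6820 to 9510 CPM, and germ cell markers from 408 to 1110 CPM to 26.7 to 131 CPM. Their part in these steps was not tested, nor was that of library totals or of the combined projects that the column headers name. The median log2 fold change of the members tested was -0.96, 2.03 and -0.29 over the 3 steps, beside 0.01, 0.01 and -0.01 for all genes tested. Null ovaries had 1 of 8 members called from E13.5 to E18.5 (30.2% of all genes), 6 of 7 from E18.5 to PND8 (77.4%) and 3 of 8 from PND8 to 12 weeks (29.1%).

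Bmp2 (ENSMUSG00000027358, chr2:133552159-133562885, plus strand) and Bmp4 (ENSMUSG00000021835, chr14:46383520-46390669, minus strand) form a closely related ligand pair that signals through BMPR1A, BMPR1B and BMPR2. Bmp2 was at 17.1 to 34.1 CPM in wild type at E13.5 and at 22 to 27 CPM at E18.5. It then fell to 19.7, 9.15, 10.9 and 12.2 CPM at PND8 (replicates 1 to 4) and stood at 29.9, 40.5, 31.2 and 24 CPM at 12 weeks. All 4 wild-type PND8 samples were below every sample of the ages on either side. The log2 fold change was -1 (SE 0.232, adjusted p = 0.00264, edgeR) into PND8 and 1.35 (SE 0.262, adjusted p = 0.00534) out of it. Null ovaries followed the same course, with 13.5, 10.2 and 14.2 CPM at PND8 (replicates 1, 3 and 4), a fall of 0.97 on the log2 scale before it (adjusted p = 0.000486) and a rise of 2.24 (SE 0.291, adjusted p = 0.00299) after it.

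Bmp4 had a trough at E18.5 in wild type. Its wild-type samples were at 13.6, 12.3, 9.39 and 23.2 CPM at E13.5 and at 3.53, 3.55, 3.06 and 3.42 CPM at E18.5. They were at 12.2, 10.1, 15 and 15.2 CPM at PND8 and at 10.2, 5.51, 9.37 and 6.84 CPM at 12 weeks. No wild-type sample of another age was as low as those of E18.5. The fall into it was 2.11 on the log2 scale (SE 0.283, adjusted p = 0.000388, edgeR) and the rise out of it was 1.86 (SE 0.192, adjusted p = 9.2e-06). Null samples were at 20.7, 5.48 and 7.97 CPM at E13.5 and at 10.8, 7.03, 6.54 and 5.78 CPM at E18.5. They were at 8.24, 9.25 and 7.78 CPM at PND8 and at 7.63, 6.98 and 8.39 CPM at 12 weeks. The null groups of consecutive ages overlapped throughout, with log2 fold changes of -0.59 (SE 0.445, adjusted p = 0.352), 0.11 (SE 0.223, adjusted p = 0.673) and -0.04 (SE 0.182, adjusted p = 0.898). The difference between genotypes in the step from E13.5 to E18.5 did not pass (1.5, SE 0.458, adjusted p = 0.147), and the difference in the step to PND8 was not tested, since PND8 values chose a member. In wild type the change from PND8 to 12 weeks was -0.64 (SE 0.218, adjusted p = 0.0537), and it passed the threshold without wild-type PND8 replicate 2 (adjusted p = 0.0436) or without 12-week replicate 1 (adjusted p = 0.0416).

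Bmp5 (ENSMUSG00000032179, chr9:75775364-75900310, plus strand) belongs with Bmp6 and Bmp7 to a subgroup of ligands that use ACVR1 as a type I receptor. Wild-type Bmp5 was at 6.76, 4.16, 4.54 and 6.5 CPM at E13.5 and at 3.42, 2.8, 3.64 and 3.37 CPM at E18.5. It was at 0.666, 0.438, 0.814 and 1.06 CPM at PND8 and at 0.35, 0.189, 0.376 and 0.187 CPM at 12 weeks. Each age lay wholly below the one before it. Of these steps the fall from E18.5 to PND8, 2.23 on the log2 scale (SE 0.315, adjusted p = 8.92e-05, edgeR), passed with any single library left out. The earlier fall of 0.74 (SE 0.26, adjusted p = 0.049) was lost in 6 of 8 such fits, without E13.5 replicates 1 or 4 or any one E18.5 replicate (adjusted p up to 0.14). The later fall of 1.34 (SE 0.405, adjusted p = 0.034) was also lost in 6 of 8, without PND8 replicates 1, 3 or 4 or 12-week replicates 1, 2 or 4 (up to 0.103). Null Bmp5 fell by 1.32 from E18.5 to PND8 (SE 0.318, adjusted p = 0.00341) and by 2.59 from PND8 to 12 weeks (SE 0.614, adjusted p = 0.0198), the latter call being lost without PND8 replicate 3 (0.0795) or 12-week replicate 1 (0.0503).

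Bmp6 (ENSMUSG00000039004, chr13:38345107-38500302, plus strand), a ligand known from oocytes, moved the other way. No wild-type sample was above 1.68 CPM at E13.5 or above 3.08 CPM at E18.5, and the PND8 samples stood at 15.5, 10.9, 11.6 and 14.4 CPM. All PND8 samples were above all earlier ones, and the rise was 2.43 on the log2 scale (SE 0.291, adjusted p = 2.72e-05, edgeR). At 12 weeks wild type was at 19.2, 16.2, 23.7 and 15.2 CPM, in part above the PND8 samples, a rise of 0.59 (SE 0.179, adjusted p = 0.0357). That later call was lost in 5 of 8 fits with a library left out, without PND8 replicates 2, 3 or 4 or 12-week replicates 1 or 3 (adjusted p up to 0.0968). In null ovaries Bmp6 went from 1.67 to 2.31 CPM at E18.5 to 19.8, 21.4 and 14.1 CPM at PND8, a rise of 3.18 (SE 0.197, adjusted p = 2.23e-07). Summed growing-oocyte markers in wild type went from 3.01 to 16.9 CPM at E18.5 to 153 to 593 CPM at PND8 and were 5.01 to 61.4 CPM at 12 weeks, and their part in the Bmp6 levels was not tested. Bmp6 shares 224 exonic bases with Txndc5 on the other strand, and strand use in counting is not given in the sources used here. Txndc5 group means ran from 278 to 472 CPM over the 8 groups. From E18.5 to PND8 they went from 320 to 472 CPM in wild type and from 278 to 445 CPM in nulls. The part of Txndc5 reads in the Bmp6 levels was not tested.

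Bmp7 (ENSMUSG00000008999, chr2:172868012-172940321, minus strand), a ligand known from theca and stroma, was highest in wild-type ovaries at PND8. Its wild-type samples were at 17.2, 15.4, 16.6 and 14.1 CPM at E13.5 and at 7.42, 15.1, 18.6 and 18.4 CPM at E18.5. They were at 41, 43.5, 40.9 and 32.9 CPM at PND8 and at 11.8, 6.14, 23.6 and 19.8 CPM at 12 weeks. Every wild-type PND8 sample was above every other sample of either genotype. Null samples were at 23, 19.4 and 18.3 CPM at E13.5 and at 11.5, 14.2, 12.6 and 10.9 CPM at E18.5. They were at 23.5, 20.9 and 18.1 CPM at PND8 and at 9.51, 7.68 and 9.87 CPM at 12 weeks. The early step was tested: in null ovaries Bmp7 fell by 0.72 on the log2 scale from E13.5 to E18.5 (SE 0.157, adjusted p = 0.00888, edgeR; 0.0634 in a fit of all groups together), while in wild type the log2 fold change was -0.1 (SE 0.267, adjusted p = 0.8). The difference between those steps is the change of the genotype effect, -0.65 (SE 0.402, adjusted p = 0.586), so it did not pass. The steps that touch PND8 are descriptive, with log2 fold changes of 1.31 and -1.28 in wild type and of 0.71 and -1.11 in null ovaries.

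The lowest wild-type Bmp7 samples at E18.5 and at 12 weeks had the lowest surface epithelium markers of their groups. Wild-type E18.5 replicate 1, at 7.42 CPM, had a summed level of the 7 markers of 148 CPM against 493 to 893 CPM in the other 3. Wild-type 12-week replicate 2, at 6.14 CPM, had 0.63 CPM against 58.1 to 99.6 CPM. The null 12-week library with 0.554 CPM of these markers, replicate 1, had 9.51 CPM of Bmp7, between the other null samples with 139 and 123 CPM of the markers. In no other group did the sample lowest in Bmp7 have the lowest markers. At PND8 wild-type replicate 4, lowest in Bmp7 (32.9 CPM), had the highest markers of its group (303 CPM). Null PND8 replicate 1, lowest of its group in the markers (29.5 CPM), had the highest null Bmp7 there (23.5 CPM). Wild-type E13.5 replicate 3, lowest of its group in the markers (386 CPM), had 16.6 CPM of Bmp7. That group ran from 14.1 to 17.2 CPM. Surface epithelium was not the only list lowest in wild-type 12-week replicate 2. Stromal (1940 against 3340 to 3760 CPM), mesonephros and oviduct (39.4 against 86.5 to 114 CPM) and growing-oocyte sums (5.01 against 9.54 to 61.4 CPM) were too. Its theca and luteal sum was the highest (12700 CPM). In wild-type E18.5 replicate 1 the growing-oocyte sum was lowest (3.01 CPM), and the stromal (3360 CPM) and mesonephros and oviduct sums (144 CPM) were not. The part of any of these cell types in the Bmp7 levels was not tested.

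Bmp3 (ENSMUSG00000029335, chr5:98854415-98884396, plus strand) is an atypical member of the family that is known to oppose signalling by other BMPs. In wild type it was at 40.8, 10.8, 2.88 and 16.9 CPM at E13.5 and at 4.62, 5.66, 10.5 and 11 CPM at E18.5. At PND8 it was at 75.3, 51.9, 53.6 and 64.5 CPM and at 12 weeks at 62.1, 93.8, 54.1 and 31.5 CPM. All PND8 samples were above all earlier ones, a rise from E18.5 of 2.85 on the log2 scale (SE 0.284, adjusted p = 7.21e-06, edgeR), and the 12-week samples overlapped those of PND8. Null samples at E13.5, with 12.8, 1.43 and 1.81 CPM, were as scattered as wild type, and a rise of 2.45 (SE 0.152, adjusted p = 2.43e-07) followed from E18.5 to PND8. The steps from E13.5 turned on single libraries. In wild type the change of -1.18 (SE 0.643, adjusted p = 0.189) became -1.52 (adjusted p = 0.0336) without E13.5 replicate 3, the library rich in red blood cell markers. In null ovaries the change of 1.15 (SE 0.753, adjusted p = 0.287) became 2.87 (adjusted p = 0.000365) without E13.5 replicate 1.

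Among the antagonists Grem1 (ENSMUSG00000074934, chr2:113746164-113758646, minus strand), which binds BMP2, BMP4 and BMP7 and is known from granulosa and cumulus cells, was the one detected almost only in adults. Before 12 weeks 16 of 22 libraries were at or under 3 counts, 5 of them at 0, and the highest held 21 counts. At 12 weeks wild-type samples were at 53.6, 13, 1.25 and 2.08 CPM and null samples at 11, 44.6 and 10.8 CPM. All 7 adult libraries were above all 7 of PND8, and within each adult group the samples spread widely. From summed counts the level at 12 weeks was 127 times that at PND8 in wild type (20 against 2355 counts, 95% interval 82 to 208) and 895 times in null ovaries (3 against 2219 counts, 306 to 4340). The intervals cover counting error only, and 1836 of the 2355 wild-type counts came from replicate 1 and 1648 of the 2219 null counts from replicate 3. The fitted log2 fold change was 6.98 in wild type and 5.32 without that replicate, and in nulls 9.51 and 8.55. Both steps passed the test (adjusted p = 0.0061 and 0.00152, edgeR).

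Nog (ENSMUSG00000048616, chr11:89300638-89302332, minus strand) encodes noggin, which binds BMP2, BMP4 and BMP7, and was low at every age. Its wild-type samples were at 2.36, 1.46, 3.71 and 1.59 CPM at E13.5, at 0.156, 0.751, 1.31 and 0.25 CPM at E18.5 and at 2.7, 2.66, 3.47 and 1.93 CPM at PND8. The E18.5 samples were below all samples of both neighbouring ages, as for Bmp4. The fall was 1.89 on the log2 scale (SE 0.639, adjusted p = 0.0426, edgeR), a call lost in 5 of 8 fits, without E13.5 replicates 1 or 3 or E18.5 replicates 1, 2 or 4 (up to 0.107), and the rise was 2.03 (SE 0.548, adjusted p = 0.00637). Nog fell again by 1.26 (SE 0.263, adjusted p = 0.00719) to 0.877 to 1.31 CPM at 12 weeks. In null ovaries the rise into PND8 was 2.04 (SE 0.413, adjusted p = 0.00116), and the steps before and after it did not pass, with log2 fold changes of -1.31 (adjusted p = 0.115) and -0.75 (adjusted p = 0.0932).

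Chrdl1 (ENSMUSG00000031283, chrX:143285674-143394262, minus strand) encodes a chordin-like protein that binds BMP4 among other ligands. It had the largest step of the members tested between E18.5 and PND8. Wild-type samples were at 2.18, 1.35, 1.82 and 1.77 CPM at E13.5, at 0.311, 0.35, 0.389 and 0.5 CPM at E18.5 and at 15.6, 12.4, 21.5 and 12.4 CPM at PND8. No sample of one of these ages overlapped another. The fall was 2.19 on the log2 scale (SE 0.378, adjusted p = 0.00159, edgeR) and the rise 5.2 (SE 0.287, adjusted p = 1.93e-07), or 36.7-fold. The wild-type E18.5 libraries held only 6 to 12 counts each, so the size of both steps rests on few counts. Null samples went from 0.567 to 0.962 CPM at E18.5 to 17.8, 17.8 and 13.4 CPM at PND8, a rise of 4.45 (SE 0.236, adjusted p = 8.02e-08). At 12 weeks wild type was at 7, 18.3, 7.52 and 4.85 CPM, and the change from PND8 of -0.63 (SE 0.393, adjusted p = 0.263) became -1.17 (adjusted p = 0.00799) without the high replicate 2.

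**Figure D2:**
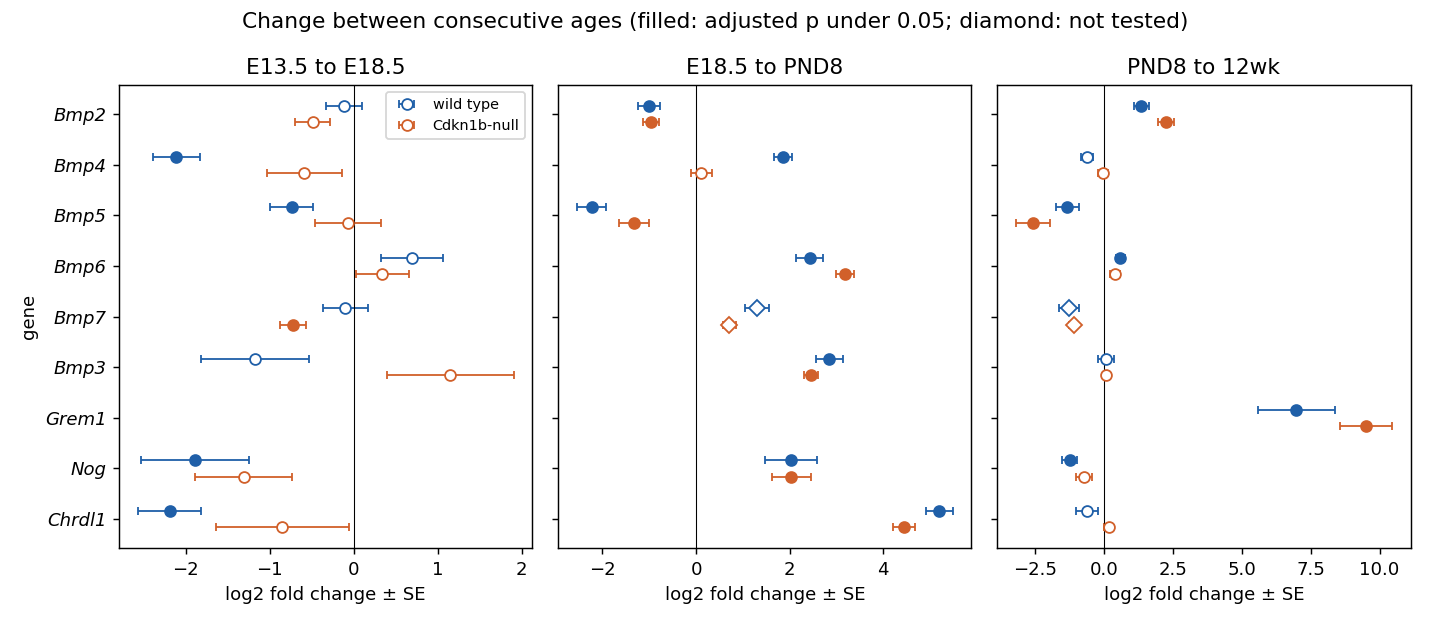
Log2 fold change ± SE (x axis) of each gene (y axis) between consecutive ages in wild-type (blue) and Cdkn1b-null (orange) ovaries; filled points passed an adjusted p of 0.05 in edgeR's quasi-likelihood test, and diamonds mark Bmp7 where it was not tested. The middle panel holds the steps of Chrdl1 (5.2 in wild type, 4.45 in null), and Bmp4 is the gene there with a filled wild-type and an open null point.

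Over all 29 libraries Bmp3, Bmp6 and Chrdl1 followed each other, with Pearson r of log2 CPM of 0.844 to 0.882 between them, and Bmp5 ran against Bmp6 (r = -0.874). Bmp4 had its highest r with Nog (0.61), and Bmp7 had -0.626 with Bmp2. These values describe libraries that share ages and depth, and no p is given for them. Among 12939 other genes the patterns most like those of the members, by the same r, were those of Arhgap35, Ralgapb and Esyt2 for Bmp6 (0.988, 0.987 and 0.987), Igf2bp3, Sox11 and Cenpt for Bmp5 (0.964, 0.952 and 0.949) and Midn, Col11a1 and Mid1 for Chrdl1 (0.963, 0.955 and 0.955). Bmp3 was closest to Katnal1, Slc8a1 and Thap2 (0.921, 0.909 and 0.907) and Grem1 to Gpx3, Rassf4 and Trp53inp1 (0.895, 0.891 and 0.887). Likeness was lower for Bmp7, with Zbtb7c, Wnt5b and Rhbdl3 (0.856, 0.828 and 0.818), for Bmp2, with Rcan2, Gper1 and Ifitm3 (0.847, 0.8 and 0.799), and for Bmp4, with Hapln3, Cdc37 and Ptger4 (0.769, 0.768 and 0.761). Nog, with a mean under 2 CPM, was not compared.

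Between genotypes a single member passed the test at a single age: Bmp4 rose in null ovaries at E18.5. That was 1 of 8 members tested there, against 4.99% of all genes tested (3.32% higher). At E13.5 the count was 0 of 8 (0.00606% of all genes), with 0 members at an unadjusted p under 0.05, and at 12 weeks it was 0 of 9 (0.0115%), with 1 member, Bmp2, at an unadjusted p under 0.05. DESeq2 also called 0 members at both ages. At E18.5, 2 of the 8 members had an unadjusted p under 0.05 (edgeR). The share of all genes at an unadjusted p under 0.05 was not taken, so these counts have no background here. The median log2 fold change of the members tested was -0.41 at E13.5, 0.07 at E18.5 and 0.28 at 12 weeks, beside -0.01, -0.04 and 0 for all genes tested.

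Bmp4 in E18.5 nulls, at 5.78 to 10.8 CPM, was above every wild-type sample, at 3.06 to 3.55 CPM. The means were 7.55 ± 2.26 and 3.39 ± 0.228 CPM (SD, n = 4 each). On the log2 scale the difference was 1.12 (SE 0.234, adjusted p = 0.0208, edgeR), or 2.18-fold. The call was lost without wild-type replicate 3 (adjusted p = 0.0592), wild-type replicate 4 (0.0595), null replicate 1 (0.0512) or null replicate 3 (0.0569), with log2 fold changes of 0.9 to 1.23 over the 8 fits. Chrdl1 was also above wild type in all 4 nulls, at 0.567 to 0.962 against 0.311 to 0.5 CPM (12 to 20 against 6 to 12 counts), but did not pass (log2 fold change 0.85, SE 0.385, adjusted p = 0.225). These were the 2 members without overlap at E18.5, where 15.2% of all genes tested had none (10.2% higher). Bmp3, at 9.19, 10.8, 12.4 and 14.9 CPM in nulls and 4.62, 5.66, 10.5 and 11 CPM in wild type, overlapped (0.54, SE 0.286, adjusted p = 0.293). In the same nulls all 7 stromal markers had a negative log2 fold change, with 3 called lower (Nr2f2, Tcf21 and Mfap5) and summed levels of 1970 to 3290 against 2350 to 4120 CPM. Of 11 granulosa markers tested, 7 had a positive log2 fold change and 2 were called higher (Inha and Cyp19a1), with summed levels of 1990 to 2390 against 1690 to 1930 CPM. Of 6 theca and luteal markers tested, 4 were positive and 1 was called higher, Hsd3b1 (255 to 344 against 114 to 229 CPM), which made up most of the summed levels of 313 to 427 against 164 to 279 CPM. The part of any of them in the Bmp4 result was not tested.

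The genotype effect on Bmp4 was larger at E18.5 than at E13.5 by 1.5 on the log2 scale (SE 0.458), which did not pass over all genes (adjusted p = 0.147, edgeR), nor did the difference of -1.19 (SE 0.456, adjusted p = 0.24) from E18.5 to 12 weeks. No member passed in either contrast of the genotype effect, 0 of 9 from E13.5 to E18.5 (0.653% of all genes called) and 0 of 9 from E18.5 to 12 weeks (0.928%). DESeq2 called 0 members in both. In each contrast 2 members had an unadjusted p under 0.05 (edgeR), a count with no share of all genes to set beside it. The contrast from E13.5 to E18.5 turned on null E13.5 replicate 1. Without it the Bmp4 difference was 2.26 (adjusted p = 0.0159) and that of Bmp3 was 4.03 (adjusted p = 0.0246) in place of 2.34 (SE 0.844, adjusted p = 0.257). That library held the highest null level at E13.5 of every member but Bmp2. Its summed markers were 386 CPM for germ cells against 1090 and 901 CPM in the other nulls, 750 CPM for granulosa cells against 1260 and 1210 CPM, and 2630 CPM for stroma against 1930 and 1770 CPM, and their part was not tested.

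At E13.5 Bmp7 was the member whose groups did not overlap, higher in all 3 nulls, where 3.73% of all genes tested had no overlap (1.71% higher). Its log2 fold change was 0.32 (SE 0.176, adjusted p = 0.988, edgeR). All 7 surface epithelium markers had a positive log2 fold change there (median 0.34, 0 called), with summed levels of 603 to 1060 against 386 to 727 CPM. Other lists shifted as well, with 0 called. Of those tested, 6 of 7 germ cell, 6 of 6 theca and luteal and 4 of 5 mesonephros and oviduct markers were positive. Smooth muscle and pericyte markers, with 1 of 6 positive, summed to 111 to 126 against 132 to 289 CPM. The part of any of these lists in the Bmp7 levels was not tested. Bmp3 had the widest interval, -1.76 (SE 1.01, adjusted p = 0.988). Grem1 was under the filter on low counts.

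At PND8 the levels are a description. Bmp7, chosen on this contrast, stood at 20.8 ± 2.7 CPM (n = 3) in nulls and 39.6 ± 4.57 CPM (n = 4) in wild type, 52.2% of wild type and a log2 fold change of -0.94. Bmp4 was lower in all nulls as well, at 8.42 ± 0.752 against 13.1 ± 2.41 CPM (-0.65). Bmp5 was higher in all nulls, at 1.47, 2.13 and 1.27 against 0.438 to 1.06 CPM (1.11). Grem1 was lower in all nulls, but no library of either genotype there exceeded 8 counts. These 4 of 9 members had no overlap, where 14.3% of all genes tested had none (8.19% higher and 6.13% lower), and nothing is read from that count since the rule used the contrast. Bmp6 was at 14.1 to 21.4 against 10.9 to 15.5 CPM (0.48), overlapping, and Bmp2, Bmp3, Nog and Chrdl1 overlapped with log2 fold changes between -0.19 and 0.11.

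Surface epithelium markers also differed at PND8: all 7 had a negative log2 fold change (median -0.81), 0 of them called by edgeR and 1 at an unadjusted p under 0.05. Their summed level was 29.5, 205 and 112 CPM in null replicates 1, 3 and 4 and 246, 210 and 303 CPM in wild-type replicates 2, 3 and 4, and wild-type replicate 1 lay between null replicates 4 and 3. The part of the surface epithelium in the Bmp7 levels was not tested. Stromal markers had a median of -0.67 with 1 of 7, Pdgfra, called lower, and summed levels of 5440 to 9250 against 6820 to 9510 CPM. Of 12 granulosa markers, 7 had a positive log2 fold change, 1, Kitl, was called higher and 9 had an unadjusted p under 0.05 (edgeR). Their summed levels were 4520 to 4690 against 3650 to 4630 CPM. Of 7 theca and luteal markers, 4 were positive and 0 called, with summed levels of 1440 to 2310 against 1070 to 1440 CPM. The part of stroma, granulosa or theca cells in the Bmp7 and Bmp4 levels was not tested. Growing-oocyte markers, with 6 of 7 log2 fold changes positive and 0 called, summed to 374 to 852 CPM in nulls and 153 to 593 CPM in wild type, and their part in the Bmp6 values was not tested.

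At 12 weeks Bmp2 was at 72.3, 36.5 and 57.4 CPM in nulls and 29.9, 40.5, 31.2 and 24 CPM in wild type. The groups overlapped by null replicate 3 and wild-type replicate 2, and the log2 fold change of 0.82 (SE 0.262) did not pass over all genes (adjusted p = 0.426, edgeR). Chrdl1 was at 19.8, 18 and 13.5 CPM in nulls, and only wild-type replicate 2, at 18.3 CPM, reached them (0.85, SE 0.425, adjusted p = 0.57). Bmp7 was at 7.68 to 9.87 CPM in nulls and 6.14 to 23.6 CPM in wild type (-0.77, SE 0.43, adjusted p = 0.617). Grem1 varied within groups more than between them (0.31, SE 1.18, adjusted p = 0.957). No member had groups without overlap at this age, where 8.77% of all genes tested did. Cell marker sums differed in nulls, with 0 markers called: smooth muscle and pericytes 806 to 1950 against 702 to 852 CPM, endothelium 421 to 1190 against 404 to 542 CPM. Red blood cell markers summed to 224 to 809 against 86 to 162 CPM, mesonephros and oviduct markers to 38.5 to 51.3 against 39.4 to 114 CPM. Surface epithelium sums overlapped widely (0.554 to 139 against 0.63 to 99.6 CPM). Their part in the member levels was not tested.

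**Figure D3:**
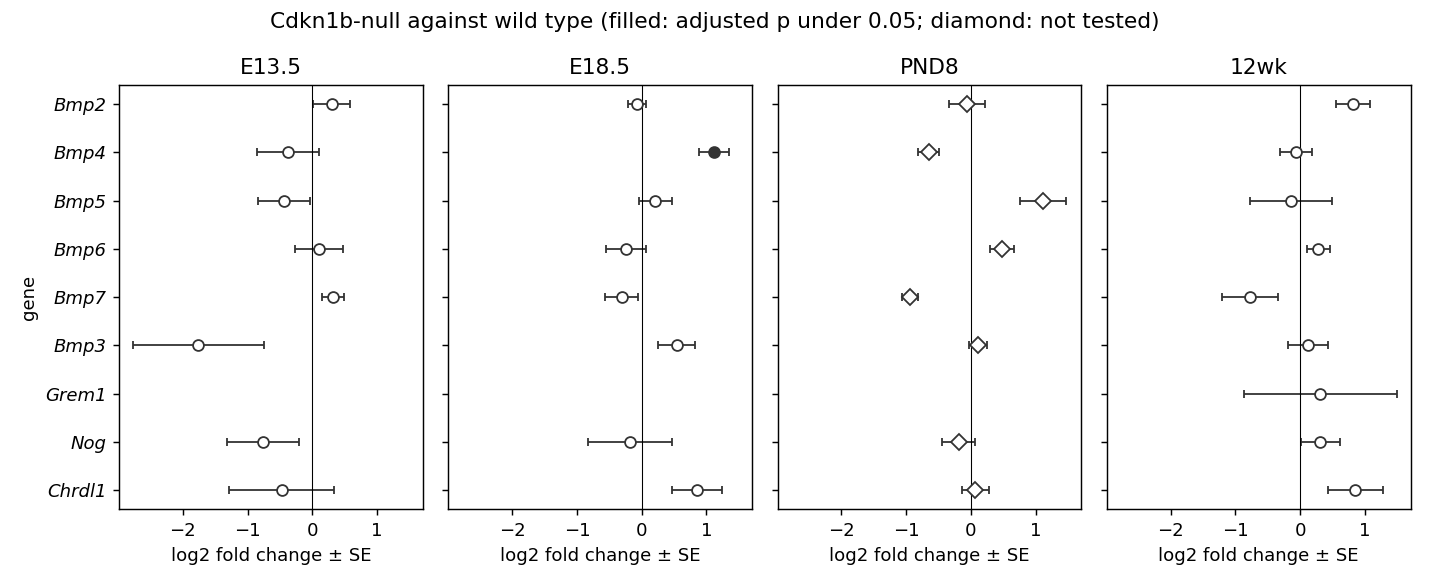
Log2 fold change ± SE (x axis) of null against wild-type ovaries for each gene (y axis) at the 4 ages; the filled point passed an adjusted p of 0.05 in edgeR's quasi-likelihood test, open circles did not, and diamonds at PND8 were not tested. Bmp4 is higher in nulls at E18.5 (1.12) and lower at PND8 (-0.65), and Grem1 has a point only at 12 weeks, where it passed the filter.

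The other genes of the pathway were taken as 6 lists of 64 genes found in the table. In wild type, 40 of 53 tested were called between E18.5 and PND8 (25 higher, 15 lower), 23 of 52 between E13.5 and E18.5 (13 higher, 10 lower) and 23 of 51 between PND8 and 12 weeks (15 higher, 8 lower). All genes tested were called at 74.6%, 34% and 30.5% in these steps, and the lists' share from E18.5 to PND8, 75.5%, is close to that background. By list, the calls into PND8 differed in direction. All 6 SMAD genes called of 8 rose (list median 1.27), as did 6 of the 7 receptors called of 11 (1.37), and the 4 proteases called of 5, which cut BMP precursors or release them from antagonists (1.7). The shares called in the SMAD and receptor lists, 75% and 63.6%, were near or below the 74.6% of all genes. An example is the chordin-cleaving protease Bmp1, at 1.68 (SE 0.11, adjusted p = 4.72e-07, edgeR), from 55.8 ± 8.12 to 190 ± 8.78 CPM (n = 4 each).

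Of 9 tested genes usually switched on by BMP signalling, 7 were called lower and 1 higher between E18.5 and PND8 in wild type. The list median was -2.23 beside 0.01 for all genes. The share called was 88.9%, beside 74.6% of all genes tested (37.6% higher and 36.9% lower). Msx1, a homeobox gene, fell by 4.03 on the log2 scale (SE 0.243, adjusted p = 2.93e-07, edgeR), from 115 ± 28.9 to 7.45 ± 2.02 CPM. Bambi, a pseudoreceptor that dampens the pathway and stood in the antagonist list, fell by 2.49 (SE 0.134, adjusted p = 1.67e-07). In that list 12 of 15 tested were called, 6 higher and 6 lower. Null ovaries gave 7 fallen and 1 risen of 9 targets too (median -2.53), where 77.4% of all genes tested were called. Id3, an inhibitor of differentiation, was lower there by 2.53 (SE 0.0963, adjusted p = 1.26e-08, edgeR).

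Earlier and later steps held other changes. From E13.5 to E18.5 in wild type the ligand gene Gdf6 fell by 3.91 on the log2 scale (SE 0.289, adjusted p = 1.78e-05, edgeR) and Fst, which encodes the activin and BMP binder follistatin, rose by 1.4 (SE 0.136, adjusted p = 7.14e-05). The proprotein convertase Pcsk6 rose by 2.58 (SE 0.297, adjusted p = 0.000187). From PND8 to 12 weeks the receptor-regulated SMAD gene Smad9 rose by 3.31 (SE 0.263, adjusted p = 8.33e-05), from 1.49 ± 0.317 to 14 ± 4.27 CPM, and Id3 by 0.97 (SE 0.13, adjusted p = 0.000946). Hey1, a transcriptional repressor, fell by 2.06 (SE 0.2, adjusted p = 0.000213) and the follistatin-like gene Fstl1 by 1.55 (SE 0.164, adjusted p = 0.000343). The null steps had 27 of 55, 39 of 52 and 23 of 51 called, beside 30.2%, 77.4% and 29.1% of all genes. Their smallest p-values included Gdf6 (-3.54), Gdf3 (-3.57) and Pcsk5 (-1.44) for the first step, Bmp1 (1.98), Smad5 (1.6) and Bmpr2 (2.39) for the second, and Id3 (1.59), Crim1 (1.65), Pcsk6 (-2.76) and Smad9 (3.09) for the last, all with an adjusted p under the threshold.

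**Figure D4:**
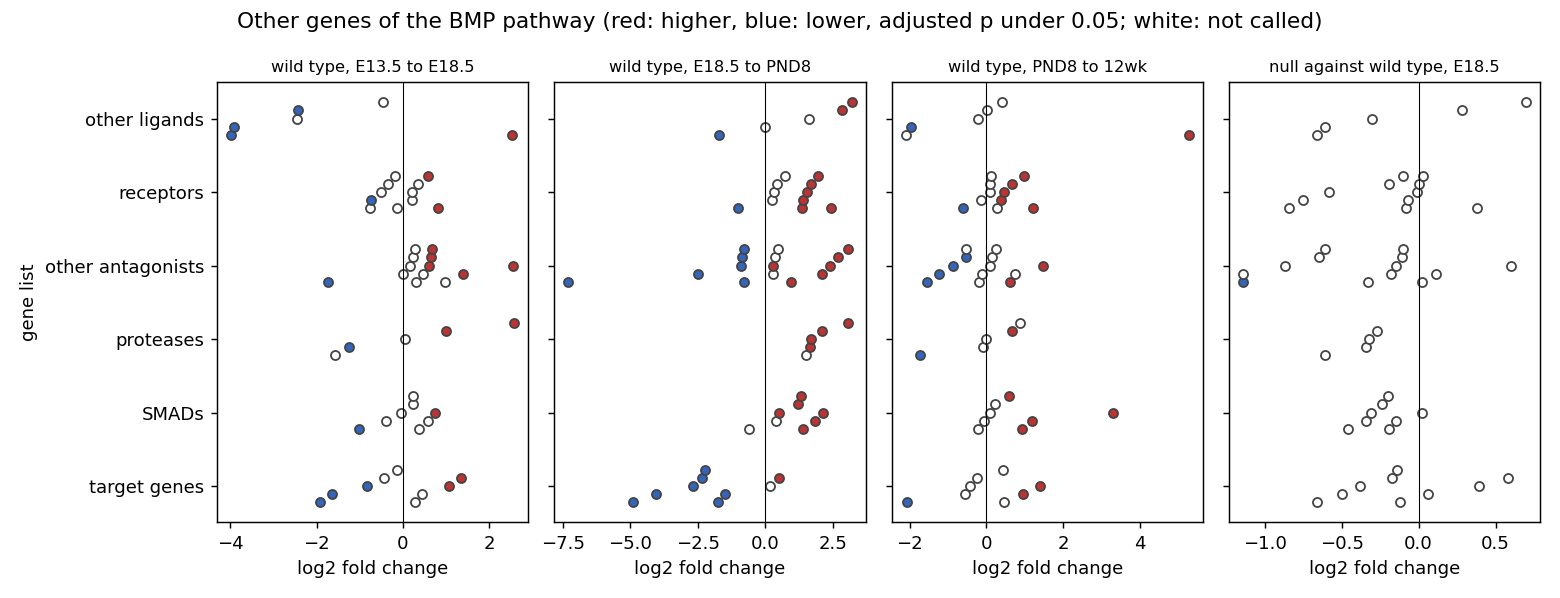
Log2 fold change (x axis) of every other pathway gene tested, by list (y axis), for the 3 wild-type steps and for null against wild type at E18.5; red points were called higher and blue points lower at an adjusted p of 0.05, white points were not called. In the second panel the 7 target genes called lower lie to the left while the SMAD and protease points called lie to the right, and the last panel has 1 called gene, Kcp (-1.14).

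Between genotypes edgeR called 1 of 50 pathway genes at E18.5, against 4.99% of all genes tested. DESeq2 called 9 pathway genes there, and 1676 genes in all. An unadjusted p under 0.05 (edgeR) was reached by 16. The share of all genes under that rule was not taken for any comparison, so such counts have no background here. The gene called by edgeR was Kcp, which encodes a chordin-like protein that enhances BMP signalling. It fell in nulls, from 9.81 to 15.8 CPM in wild type to 4.98 to 7.35 CPM (-1.14, SE 0.199, adjusted p = 0.00924, edgeR). Same-numbered samples at that age had correlations of 0.115 to 0.249, but only 1 of 4 nulls matched its own number best. With the replicate numbers as a block 4 pathway genes were called. At PND8 edgeR called 1 of 52, against 0.349% of all genes tested, and 15 had an unadjusted p under 0.05. DESeq2 called 8 pathway genes there, and 741 genes in all. The gene called by edgeR was Nbl1, an antagonist of the DAN family. It fell from 66.4 to 80.1 CPM in wild type to 42.8 to 50.1 CPM in nulls (-0.63, SE 0.0845, adjusted p = 0.043). That call was lost in 5 of 7 fits, without wild-type replicates 1, 2 or 4 or null replicates 3 or 4 (adjusted p up to 0.185), and in a fit of all groups together (0.767). At E13.5 0 of 55 were called by edgeR (1 at an unadjusted p under 0.05, 0 by DESeq2), the smallest p-values being those of Smad4 (-0.44) and the receptor Acvr1 (-0.52). At 12 weeks 0 of 52 were called by edgeR (11 at an unadjusted p under 0.05), with Tgfbr3 (0.49, adjusted p = 0.37) and Msx1 (-0.96, adjusted p = 0.397) nearest. DESeq2 called 2 pathway genes there, and 298 genes in all.

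The genotype effect changed from E18.5 to 12 weeks for 2 of 59 pathway genes, against 0.928% of all genes. Acvr1, a type I receptor for BMP6 and BMP7, was at 6.4 to 8.07 CPM in nulls and 7.26 to 13.1 CPM in wild type at E18.5, and at 50.3 to 88.1 against 39.2 to 47.5 CPM at 12 weeks. The difference was 1.28 on the log2 scale (SE 0.269, adjusted p = 0.0175, edgeR) and was lost without null E18.5 replicate 3 (0.0516), null 12-week replicate 1 (0.0516) or replicate 4 (0.0911). Msx1 was at 141 to 193 against 84 to 150 CPM at E18.5 and at 2.09 to 3.38 against 4.63 to 6.23 CPM at 12 weeks, a difference of -1.55 (SE 0.343, adjusted p = 0.0247). It was lost in 6 of 15 fits, without wild-type E18.5 replicate 4, null E18.5 replicates 3 or 4, wild-type 12-week replicate 3 or null 12-week replicates 1 or 3 (up to 0.0808). From E13.5 to E18.5 0 of 59 were called (4 at an unadjusted p under 0.05), with Kcp (-1.14, adjusted p = 0.329) and Chrd (-1.34, adjusted p = 0.332) nearest.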

How the data were processed

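RNA-seq was run on 29 mouse ovary samples in 8 groups of genotype and age. The column headers name combined projects, and the labels do not say which sample came from which, so no batch term was used. The part of project in the steps between ages was not tested. The deposited table holds RSEM gene-level expected counts made by the authors, per the file headers, for 51912 Ensembl identifiers, 51633 of which were matched to a symbol. Trim Galore, STAR 2.5.2, RSEM 1.3.0 and FastQC 0.11.5 are listed in the submitters' processing notes. The genome build, library kit and strandedness are not given in the sources used here. Of the expected counts above 0, 31.4% were not whole (tolerance 0.000001), and 15157 identifiers had none.

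Counts were rounded and tested with edgeR 4.0.16 (R 4.3.3, limma 3.58.1) by its quasi-likelihood test with TMM scaling, genes kept by filterByExpr (minimum count 10, total 15), and p-values adjusted by Benjamini-Hochberg over all genes tested at a threshold of 0.05. Each fit held the 2 groups compared, and changes of the genotype effect came from 1 fit of all samples. The standard error is the log2 fold change divided by the root of F. DESeq2 1.42.0, RLE scaling, no filter, 1 fit of all groups, a replicate block and leaving out each replicate (95 refits) were the alternatives. Gene positions and exon lengths came from GENCODE M21 on GRCm38 and promoters from RefSeq GRCm38.p6. In simulated counts for E18.5 (16029 genes), 55.1% of 89 genes changed by 1 on the log2 scale and 91.9% of 111 changed by 2 were recovered, with 6.79% of calls false. The simulation drew each gene at the trend of spread with level. It held no spread particular to a gene and no deviation shared between samples, so these rates describe that setting and not the data. The 39 replicate pairs all differed beyond counting noise (chi-square per degree of freedom 14.12 to 316.6).

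Same-numbered samples deviated together (correlations over 0.1 in every pair) for the genotypes at E18.5 (4 pairs, 0.115 to 0.249) and for the null step from E13.5 to E18.5 (3 pairs, 0.153 to 0.256), the numbers being those in the sample titles. The own number was the best match for 1 of the 4 pairs and for all 3 pairs, in that order. The labels do not say what the numbers stand for. The members and lists were chosen with earlier results of these data known. Named were the 9 members, Cdkn1b, the up to 4 called pathway genes with the smallest p per comparison (up to 2 where none was called), and the 3 genes most like each member by Pearson r of log2 CPM (prior count 2) among genes with a mean of at least 2 CPM. A gene that this rule names is not reported here. Of 65 pathway symbols 64 were found, and all 77 marker symbols in 11 lists.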

Additional observations from a re-analysis of the deposited data

Results flagged for a closer look

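Bmp5 at E18.5 had 1 null sample far from the others: replicate 1 was at 5.67 CPM and the other 3 nulls at 3.13 to 3.46 CPM. In all, 45 groups of 4 samples were examined for such gaps, of which chance gives about 1 in 20.

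Bmp4 was higher in every null sample than in every wild-type sample at E18.5 (log2 fold change 1.12) and lower in every one at PND8 (-0.65). Bmp7 was higher in every null sample at E13.5 (0.32) and lower in every one at PND8 (-0.94), the contrast on which it was chosen. Neither difference between ages was tested.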

How the results depend on the processing

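Of 1311 alternative values for 101 member results, 1222 were counted as unchanged. For tested values this means the same direction and the same side of the threshold. For values not tested it means a shift smaller than the mean SD within groups, so changes of sign there are not counted. Under settings other than leaving out a replicate 5 tested values changed sign, 9 lost and 3 gained a call. With a replicate left out 37, 28 and 7 did. Except where stated, the cause was not tested.

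Pathway genes called at E18.5 (1) were 3 with no filter, 4 with the replicate block, 3 in 1 fit of all groups and 9 with DESeq2. At PND8 (1) they were 4, 0, 0 and 8 in that order, and at 12 weeks (0) they were 2 with DESeq2. Members called in the null step from E13.5 to E18.5 (1) were 0 in 1 fit of all groups. The block changed no other call in the comparisons where all same-numbered pairs deviated together. Elsewhere not all pairs did (pair correlations -0.144 to 0.242). With the number as a block there, Bmp5 lost its wild-type calls into E18.5 (0.117) and out of PND8 (0.0662) and its null call out of PND8 (0.0563). Bmp6 lost its wild-type call out of PND8 (0.059) and Bmp4 gained one there (0.0357). Under other settings Bmp5 lost its wild-type calls into E18.5 with no filter (0.121) and in 1 fit of all groups (0.111) and out of PND8 with no filter (0.0738), Bmp6 lost its wild-type call out of PND8 (0.0786) and gained one into E18.5 (0.0211) in 1 fit, Bmp7 lost its null call into E18.5 in 1 fit (0.0634), and Bmp4 gained one out of PND8 by DESeq2 (0.0242). Calls over all genes were 1 (1 to 71), 814 (814 to 1676), 62 (0 to 741) and 2 (2 to 298) for the genotypes at the 4 ages, and 133 (97 to 412) and 189 (129 to 589) for the changes of the genotype effect, each with its range over settings, the highest by DESeq2. With a replicate left out they ranged from 0 to 1, 246 to 1372, 0 to 147 and 0 to 3 for the genotypes, and from 42 to 206 and 70 to 280 for the changes, so that 1 library moves these backgrounds by over 1.5 times.

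With a replicate left out, the members called ranged from 0 to 1 at E18.5, 2 to 4, 7 to 7 and 3 to 5 in the wild-type steps, 1 to 2, 6 to 6 and 2 to 3 in the null steps, and 0 to 2 in the change from E13.5 to E18.5. Pathway genes called ranged from 1 to 5 at E18.5 and 0 to 3 at PND8.

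Signs changed only in values that had not been called. Bmp3 from PND8 to 12 weeks was -0.02 with the block and -0.01 in 1 fit (wild type) and -0.02 in 1 fit (null). Bmp5 was 0.05 with the block in the null step from E13.5, and Chrdl1 was -0.01 with no filter in the change from E18.5 to 12 weeks. With a replicate left out, the genotype values ranged for Bmp6 from -0.01 to 0.26 and Chrdl1 from -1.84 to 0.08 at E13.5, for Bmp5 from -0.02 to 0.31 and Nog from -0.49 to 0.49 at E18.5, and for Bmp3 from -0.08 to 0.4, Bmp4 from -0.21 to 0.08, Bmp5 from -0.78 to 0.32 and Grem1 from -0.64 to 1.98 at 12 weeks. Wild-type steps ranged for Bmp2 from -0.29 to 0.02 and Bmp7 from -0.22 to 0.13 (E13.5 to E18.5) and for Bmp3 from -0.24 to 0.27 (PND8 to 12 weeks). Null steps ranged for Bmp4 from -0.93 to 0.17, Bmp5 from -0.42 to 0.18 and Chrdl1 from -1.39 to 0.48 (E13.5 to E18.5), for Bmp4 from -0.01 to 0.31 (E18.5 to PND8), and for Bmp3 from -0.02 to 0.12 and Bmp4 from -0.13 to 0.06 (PND8 to 12 weeks). Changes from E18.5 to 12 weeks ranged for Bmp5 from -1.02 to 0.07, Nog from -0.18 to 0.8 and Chrdl1 from -0.21 to 0.56. Among the untested genotype values at PND8, Bmp2 ranged from -0.2 to 0.24 and Chrdl1 from -0.03 to 0.26. Depth limits Grem1 before 12 weeks, where 16 of 22 libraries held at most 3 counts. Counts per library were also low for Chrdl1 (6 to 20) and Nog (3 to 27) at E18.5 and for Bmp5 at 12 weeks (3 to 12).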

Other observations

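The oocyte ligand genes Gdf9 and Bmp15 and the genes Id1, Id2 and Id3 are given here, chosen after their values were seen. At PND8 the Gdf9 level averaged 54.9 CPM (SD 32.9) over the 4 wild-type samples and 100 CPM (SD 58.3) over the 3 nulls. By 12 weeks these means were 12.2 ± 14.6 and 2.38 ± 0.442 CPM, a log2 fold change of -2.36 that did not pass (adjusted p = 0.482, edgeR). The highest wild-type sample was at 33.9 CPM against a median of 6.23 CPM. All 7 growing-oocyte markers, a list without these genes, had a negative log2 fold change at 12 weeks (median -2.85, 0 called, 7 at an unadjusted p under 0.05), with summed levels of 2.86 to 5.44 CPM in nulls and 9.54, 5.01, 61.4 and 23.7 CPM in wild-type replicates 1 to 4, and their part was not tested. Bmp15 at 12 weeks had -3.5 (adjusted p = 0.408). Id1, Id2 and Id3, usual targets of BMP signalling, had log2 fold changes of -0.59, -0.52 and -0.44 in PND8 nulls, with adjusted p of 0.143, 0.272 and 0.127 (edgeR), so none was called. The whole list of usual target genes had a median of -0.31 there, with 0 of 8 tested called, beside 0 for all genes.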
